A study of Mus musculus with 6 samples.

Results

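The miR-29 microRNAs were followed through 8 quantitative PCR assays, of 584 microRNA assays on the cards used. They are all assays whose name, without the species prefix and the part number, is miR-29a, miR-29b or miR-29c, alone or with the endings -1, -2, -3p, -5p or an asterisk, where endings could be combined. Of the 8 assays, 6 are named for mouse and 2 for rat, 3 belong to card A and 5 to card B, and they fill 11 of 768 wells. RNA came from purified cell bodies of cortical projection neurons of mice 1 day after birth. Callosal projection neurons (CPN), which join the hemispheres and are the controls of the design, gave 3 samples, and subcerebral projection neurons (SCPN), whose axons run to the brainstem and the spinal cord, gave 3. The comparison asked which microRNAs differ between these classes of neuron. The sources used here do not give strain, genotype, sex, the method of purification or any pooling of animals. The p-values therefore cover only how far these samples spread, and that spread may be technical.

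MicroRNAs are cut from a hairpin precursor, whose 5′ and 3′ arms can each give a mature strand, and the strand loaded into Argonaute represses messenger RNAs that match its seed. In miR-29 the 3′ arm is the principal strand, known to repress the DNA methyltransferases Dnmt3a and Dnmt3b, collagens and, in mature neurons, pro-apoptotic BH3-only genes. The family is known to rise with maturation of the mouse brain, and the age studied here comes early in that rise. Names with an asterisk mark the other strand, here the 5′ arm.

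The mature strands are shown because the assays are named for single strands and because the 3′ arms share a seed while the 5′ arms do not. In RefSeq on build GRCm38.p6, Mir29a lies at chr6:31062660-31062747 and Mir29b-1 at chr6:31063023-31063093, both on the minus strand and 275 bases apart, with no other gene of the table over them. Mir29b-2 at chr1:195037040-195037120 and Mir29c at chr1:195037547-195037634, both on the plus strand and 426 bases apart, lie within the gene A330023F24Rik. The gene table does not tell exon from intron. Mature sequences run 5′ to 3′ with the seed, bases 2 to 8, in capitals.
mmu-miR-29a-3p: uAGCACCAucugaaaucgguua
mmu-miR-29b-3p: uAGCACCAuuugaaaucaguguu
mmu-miR-29c-3p: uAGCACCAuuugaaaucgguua
mmu-miR-29a-5p: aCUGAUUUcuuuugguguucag
mmu-miR-29b-1-5p: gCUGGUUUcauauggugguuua
mmu-miR-29b-2-5p: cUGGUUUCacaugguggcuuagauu
mmu-miR-29c-5p: uGACCGAUuucuccugguguuc
The seed AGCACCA was held by 3 of 1679 mature names in the table, namely these 3′ arms. Counted from the 5′ end, miR-29c-3p differed from miR-29a-3p by U10C alone, and miR-29b-3p from miR-29c-3p by A18G, G21U and U22A over the 22 shared positions. How far the assays of strands this alike detect each other was not tested. MiR-29b-3p has the same letters from both of its genes, so its assay cannot separate them. The 4 strands of the 5′ arm have 4 different seeds. By its name the mouse assay miR-29b* could stand for either gene of miR-29b. The rat sequences of the 2 rat-named assays are not used here.

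Each well gives a threshold cycle (Ct), the PCR cycle where the signal passes a threshold, so that a lower Ct means more template. Levels below are log2 levels: the mean Ct of the microRNA assays found in all 6 samples on a card, minus the Ct of the assay, with 0 at that mean and 1 unit equal to 1 cycle. An assay was taken as detected at a Ct under 35, and a value beyond was set to 35 and bounds the level from above. Samples differed in the amount of template: the mean Ct of the common assays of card A was 21.8 in SCPN replicate 1 and 22.6 in CPN replicate 1, against 24.7 to 28.1 in the other samples, and 250 to 331 assays were detected per sample. Neuronal marker microRNAs had a median log2 level of 6.06 to 7.27 per sample over the 5 on the cards. Of these, miR-124 lay below 0, with a mean of -0.88 in CPN and -1.25 in SCPN. The means of miR-9, miR-9*, miR-138 and miR-137 were above 0 in both groups. The medians were -7.77 to -3.24 over 3 astrocyte assays, -2.57 to -1.33 over 4 microglia and blood assays and -0.74 to 1.80 over 2 endothelial assays. The -7.77, in SCPN replicate 3, lay at the Ct limit. Members differed, as in endothelial miR-126-3p (means 2.01 in CPN, 3.115 in SCPN) and miR-126-5p (-2.28, -1.49). So did astrocyte miR-449a (-1.54, -1.70) and miR-143 (-7.42, -7.46), and miR-150 of the blood list was above 0 (0.88, 1.15). Oligodendrocyte miR-338-3p had means of -7.12 and -7.67. Erythroid miR-451 was not tested, with a Ct under 30 in SCPN replicate 1 and none elsewhere. The microglia and blood list had 5 assays on the cards, and its median leaves out miR-142-5p, which was detected in 0 samples. Of these lists 0 assays passed the adjusted test, and their part in the results was not tested. In bulk samples fewer cells of a type and less RNA per cell cannot be told apart.

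Of the 8 miR-29 assays, 3 were detected in all 6 samples, and these were miR-29a, miR-29c and miR-29b*. MiR-29c* was detected in 4 samples, the rat-named miR-29b-2* in 3, miR-29b and miR-29a* in 1 each, and the rat-named miR-29b-1* in 0. Detection in at least 3 samples was required for a test, which 5 of the 8 assays met, against 306 of all 584.

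**Figure D1:**
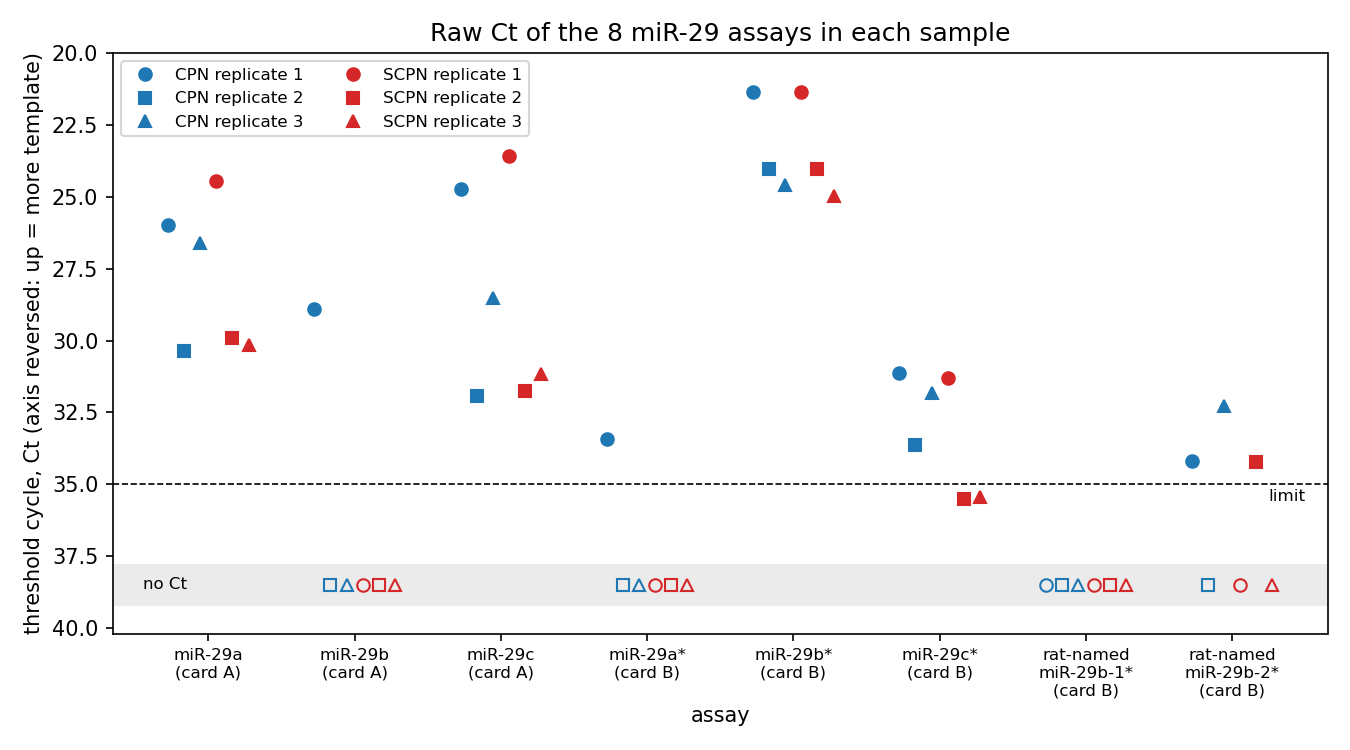
Raw Ct (vertical axis, cycles, reversed so that more template is higher) of the 8 miR-29 assays in each of the 6 samples, with CPN in blue, SCPN in red and 1 symbol per replicate number; the dashed line is the limit of Ct 35, and open symbols in the grey band had no Ct. MiR-29b* was called between Ct 21.3 and 24.99 in every sample, while miR-29b had a Ct in CPN replicate 1 alone.

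No tested miR-29 assay passed the test between CPN and SCPN. Of 5 tested, 0 passed an adjusted p of 0.05 by limma with Benjamini-Hochberg adjustment over 306 assays, and 0 had an unadjusted p under 0.05. Over all tested assays these shares were 0% and 8.17%, with 1.63% both under an unadjusted 0.05 and lower in SCPN. The mean was lower in SCPN for 4 of the 5 and higher for 1, where 54.9% of all tested assays had a lower mean in SCPN. The median log2 difference, SCPN minus CPN, was -0.29 over the 5 and -0.08 over all 306. With scaling on control RNAs the counts turned to 2 lower and 3 higher (the authors' scaling) or 1 lower and 4 higher (controls without U6). Groups overlapped in 4 of the 5 both with late Ct values set to 35 and with every Ct kept. In miR-29c* they overlapped only with values past Ct 35 set to 35, and did not with every Ct kept, a comparison chosen after seeing the data. Over all tested assays the share whose groups did not overlap was 15% with the limit and 16.3% with every Ct kept and a missing Ct set to 40.

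MiR-29a, whose 3′ arm comes from the chromosome 6 pair, gave Ct values of 26.0, 30.4 and 26.6 in CPN replicates 1 to 3 and 24.5, 29.9 and 30.2 in SCPN replicates 1 to 3. As log2 levels these were -3.38, -2.28 and -1.88 in CPN and -2.68, -2.78 and -2.94 in SCPN. The SCPN samples lay close together and inside the wider range of the CPN samples. The CPN mean was -2.52 ± 0.78 and the SCPN mean -2.80 ± 0.13 (SD, n = 3 each), below the mean of the common assays in every sample. The log2 difference was -0.29 ± 0.61 (SE, limma adjusted p 0.93), with a 95% interval of -1.71 to 1.14, so that a ratio of SCPN to CPN between 0.306 and 2.20 is covered. Without CPN replicate 3 the difference was 0.031.

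MiR-29c, from the chromosome 1 pair, gave Ct values of 24.7, 31.9 and 28.5 in CPN and 23.6, 31.7 and 31.2 in SCPN. Its log2 levels were -2.13, -3.86 and -3.79 in CPN and -1.81, -4.61 and -3.95 in SCPN. Replicate 1 was the highest sample of both groups, and the other 4 samples lay at least 1 unit lower. The means were -3.26 ± 0.98 and -3.46 ± 1.46 (SD, n = 3 each), and the log2 difference was -0.20 ± 0.90 (SE, limma adjusted p 0.97; 95% interval -2.31 to 1.91). With the replicate number as a block the SE was 0.42 and the adjusted p 0.83. The sign turned without CPN replicate 1 (0.37), SCPN replicate 2 (0.39) or SCPN replicate 3 (0.049).

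Because both assays sit on card A, the level of miR-29a minus that of miR-29c does not depend on the scaling. It was -1.26, 1.58 and 1.91 in CPN replicates 1 to 3 and -0.87, 1.83 and 1.01 in SCPN replicates 1 to 3. The assays thus took opposite orders in replicate 1 and in replicates 2 and 3, in both classes of neuron. The CPN mean was 0.74 ± 1.74 and the SCPN mean 0.66 ± 1.39 (SD, n = 3 each), which differ by -0.089 with an exact two-sided permutation p of 0.9. That p was also 0.9 after adjustment over the 4 values tested in this way, of which the other 3 are ranks, and 3 against 3 samples cannot go below 0.1. Both samples numbered 1 also had the lowest mean Ct of their group, and the part of template amount in this pattern was not tested. A Ct also carries the efficiency of its assay, so the sign of the difference within a sample does not give the molar order of miR-29a and miR-29c.

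**Figure D2:**
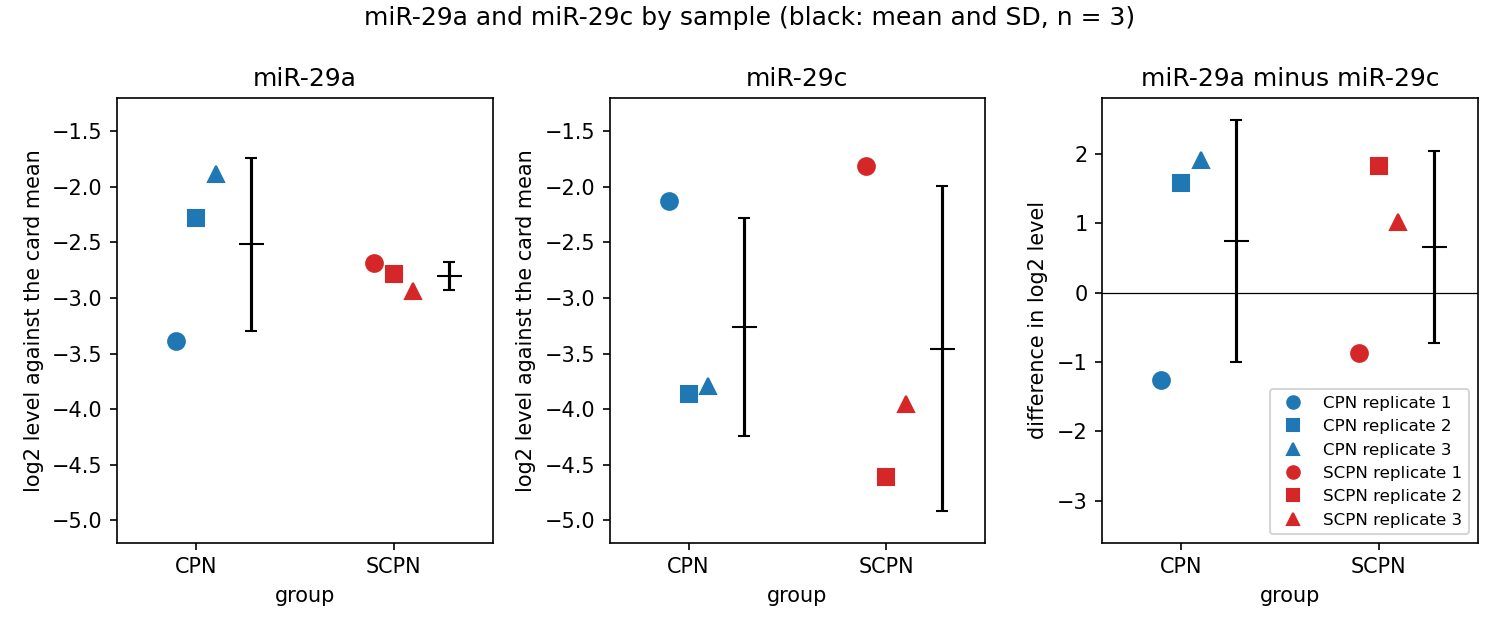
Log2 level of miR-29a (left), of miR-29c (middle) and their difference (right) in each sample, by group on the horizontal axis, with 1 symbol per replicate number and the group mean and SD in black (n = 3). The difference was below 0 in replicate 1 of both groups and above 0 in the other 4 samples.

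MiR-29b, the third 3′ arm, had a Ct of 28.9 in CPN replicate 1, a log2 level of -6.31, and no Ct in any other sample. In SCPN replicate 1, where miR-29a and miR-29c came up earlier than in CPN replicate 1, the limit lay at -13.2. If the well without a Ct worked, the single value in CPN replicate 1 was at least 120-fold higher. Against the limit of CPN replicate 3 it was, on the same condition, at least 15.5-fold higher. Whether the wells without a Ct worked was not tested. In CPN replicate 2, SCPN replicate 2 and SCPN replicate 3 the limit lay only 0.62 to 1.55 units below that value, and little can be read there. With 1 well in 1 sample these bounds compare those samples, not the classes of neuron. Assays that gave a Ct under 30 in CPN replicate 1 and no Ct in SCPN replicate 1 numbered 8, and 8 assays showed the reverse.

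Of the 5′ arms, miR-29b* was the one detected throughout. Its 2 wells gave mean Ct values of 21.3, 24.0 and 24.6 in CPN and 21.4, 24.0 and 24.99 in SCPN, and the wells of a sample were 0.0044 to 0.30 cycles apart. Its log2 levels were 2.90, 4.76 and 1.87 in CPN and 2.24, 4.04 and 3.42 in SCPN. Replicate 2 was the highest sample of both groups, and the groups overlapped. The means were 3.18 ± 1.47 and 3.23 ± 0.91 (SD, n = 3 each), with a log2 difference of 0.055 ± 0.89 (SE, limma adjusted p 0.99; 95% interval -2.03 to 2.14). Leaving out a single sample turned the sign in 4 of 6 cases, giving -0.082 (CPN replicate 1), -0.60 (CPN replicate 3), -0.38 (SCPN replicate 2) and -0.043 (SCPN replicate 3).

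The asterisk of miR-29b* thus stood for an assay with an early Ct in all 6 samples, while the assay of its partner strand miR-29b gave a Ct in 1. The rat-named miR-29b-1*, by its name the 5′ arm of Mir29b-1, gave no Ct in its well in any sample. Whether these assays differ in efficiency or in the ends of the strand they prime on was not tested, so the gap is one between assays and not a measured ratio of strands.

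MiR-29c*, the 5′ arm of Mir29c, had the smallest p of the family. Mean Ct values were 31.1, 33.6 and 31.8 in CPN and 31.3, 35.5 and 35.4 in SCPN, so that it was detected in 3 of 3 CPN and 1 of 3 SCPN samples. The CPN samples, where it was higher, thus met the requirement for a test by themselves. With values past Ct 35 set to 35, its log2 levels were -6.86, -4.83 and -5.35 in CPN and -7.71, -6.93 and -6.59 in SCPN. SCPN lay below CPN in each of the 3 same-numbered pairs, with differences of -0.85, -2.10 and -1.25, and the bound of SCPN replicate 3 lay above the level of CPN replicate 1. At their own Ct, each from 1 well, SCPN replicates 2 and 3 stood at -7.44 and -7.03, and all 3 SCPN samples then lay below the lowest CPN sample. The SCPN mean was -7.08 ± 0.58 and the CPN mean -5.68 ± 1.06 (SD, n = 3 each), 2.63-fold higher in CPN. The log2 difference of -1.40 ± 0.72 (SE; 95% interval -3.08 to 0.29) had an unadjusted p of 0.0911 and a limma adjusted p of 0.71, and ranked 39 of 306 by p.

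As 2 of the SCPN levels of miR-29c* are upper bounds, the size of its difference is itself tied to the limit. With every Ct kept it was -1.70 (limma unadjusted p 0.0531, adjusted p 0.54). With a limit of Ct 32, where 3 of the 6 values were limits, CPN replicate 2 among them, it was -0.0039, and 0.093 relative to the median of tested assays on its card. In CPN replicate 2, SCPN replicate 2 and SCPN replicate 3 only 1 of the 2 wells gave a Ct. With the replicate number as a block the unadjusted p was 0.0273 and the adjusted p 0.24, where 16.7% of all assays had an unadjusted p under 0.05 and 0% passed after adjustment.

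The remaining 5′ arm assays sat near the limit. The rat-named miR-29b-2* gave a Ct of 34.2 and 32.3 in CPN replicates 1 and 3, 34.2 in SCPN replicate 2 and none elsewhere. Its log2 difference was -0.73 ± 1.65 (SE, limma adjusted p 0.93), with 3 of the 6 values at the limit. It was 0.94 without SCPN replicate 1, whose limit was the lowest at -11.4, and -2.39 with a missing Ct set to 40. MiR-29a* gave a mean Ct of 33.4 in CPN replicate 1, with wells 1.24 cycles apart, and no Ct elsewhere. At a log2 level of -9.16 that value lay below the limit of 4 of the other 5 samples, so that miR-29a* was not detectable at such a level there.

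**Figure D3:**
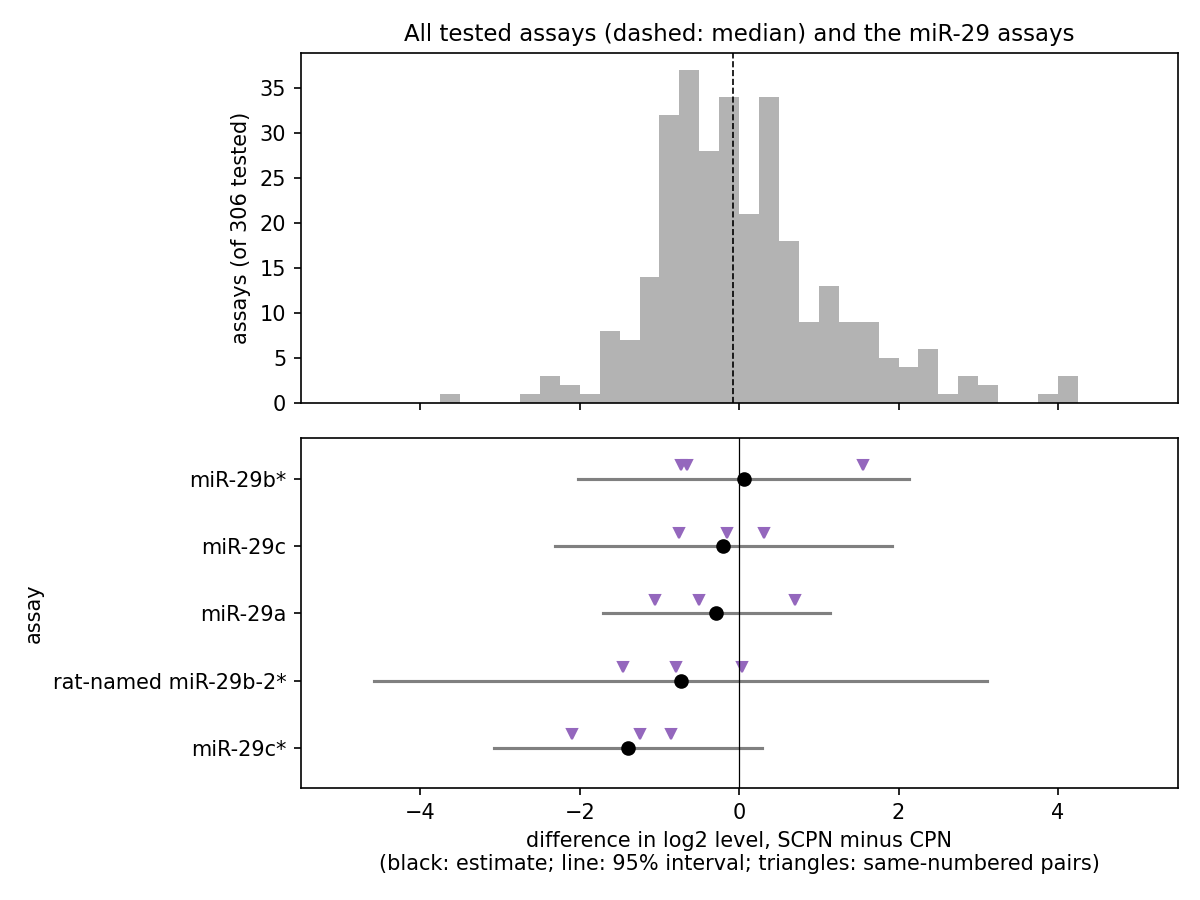
Upper panel: number of tested assays (vertical axis) by log2 difference, SCPN minus CPN (horizontal axis), with the median over 306 assays at -0.08 as a dashed line. Lower panel: the 5 tested miR-29 assays on the same axis, with the estimate as a black point, its 95% interval as a line and the 3 same-numbered pairs as triangles; all 5 intervals include 0, and in miR-29c* alone the 3 pairs lie on 1 side.

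Ranks need no scaling. Among the 159 card A assays detected in all samples, miR-29a stood at percentiles 20.8, 29.6 and 33.3 in CPN and 27.7, 23.9 and 22.6 in SCPN, with an exact permutation p of 0.6. MiR-29c stood at percentiles 32.1, 14.5 and 13.2 in CPN and 33.3, 8.81 and 11.3 in SCPN, again with an exact p of 0.6. These ranks order assays by Ct and not strands by amount. Among 65 such assays of card B, miR-29b* stood between percentiles 73.8 and 92.3, with an exact p of 0.8. Each adjusted p over these ranks and the difference above was 0.9.

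Which other assays followed the same pattern over the samples was read from Pearson's r over the 6 samples against 223 other assays detected in all of them, which share the scaling and the RNA of a sample. MiR-29c was most like miR-26a (r = 0.967), miR-106b (r = 0.966) and miR-30c (r = 0.96), all of card A and all highest in both samples numbered 1. For miR-26a the levels were 3.79, 2.05 and 2.63 in CPN and 3.83, 2.07 and 2.26 in SCPN. MiR-29a was most like miR-345-5p (r = 0.847), miR-503* (r = 0.819) and miR-709 (r = 0.759). MiR-29b* was most like miR-188-5p (r = 0.94), the rat-named miR-463 (r = 0.935) and miR-125b-3p (r = 0.883). For each member these were the 3 highest of 223 values of r, a choice that by itself gives high values over 6 samples. The members themselves did not run together, with r = -0.39 between miR-29a and miR-29c, -0.13 between miR-29a and miR-29b* and -0.526 between miR-29c and miR-29b*.

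Other microRNAs known to rise with brain maturation or neuronal differentiation were read beside the family. The listed name miR-128a was not on the cards, and an assay named miR-128, not counted here, had a log2 difference of -0.55 (limma adjusted p 0.81). Of 9 listed, 8 were on the cards under the listed name and tested, with 5 lower and 3 higher in SCPN. Their median log2 difference was -0.24, and 0 were past either threshold by limma. Examples are miR-138, a dendritic microRNA, with a level of 6.26 ± 0.20 in CPN against 7.28 ± 0.13 in SCPN (SD, n = 3 each; limma adjusted p 0.71), and let-7c, known for timing of differentiation, with 5.29 ± 1.32 and 4.51 ± 0.62 (adjusted p 0.83). Of 9 microRNAs known from progenitors, all tested, 7 had a lower and 2 a higher mean in SCPN, with a median of -0.51. Over all tested assays 54.9% had a lower mean in SCPN, and the median was -0.08. Among the 9 progenitor assays 0 passed after adjustment, and 1, miR-92a, had an unadjusted p under 0.05 (log2 difference -2.02 ± 0.72 SE, limma adjusted p 0.50), where 8.17% of all tested assays did.

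The authors' deposited table gives a higher value in SCPN for 3 of the family's assays. Its ratio of SCPN to CPN was 1.94 for miR-29a, 2.06 for miR-29c, 1.37 and 1.34 for the 2 wells of miR-29b* and 0.339 for miR-29c*. In the authors' deposited table the median ratio was 2.14 over 168 assays of card A, of which 151 had a ratio above 1, and 1.17 over 72 assays of card B. The ratios of miR-29a and miR-29c thus lay slightly below the median of their card. With the authors' scaling on control RNAs the limma log2 differences were 0.96 ± 1.19 for miR-29a and 1.05 ± 1.26 for miR-29c (SE, adjusted p 0.95 and 0.94), while the median over all 306 tested assays moved from -0.08 to 0.87. Relative to the median of tested assays on their card, they were -0.16 for miR-29a and -0.069 for miR-29c with either scaling, as 1 constant per sample and card shifts all assays of a card alike.

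**Figure D4:**
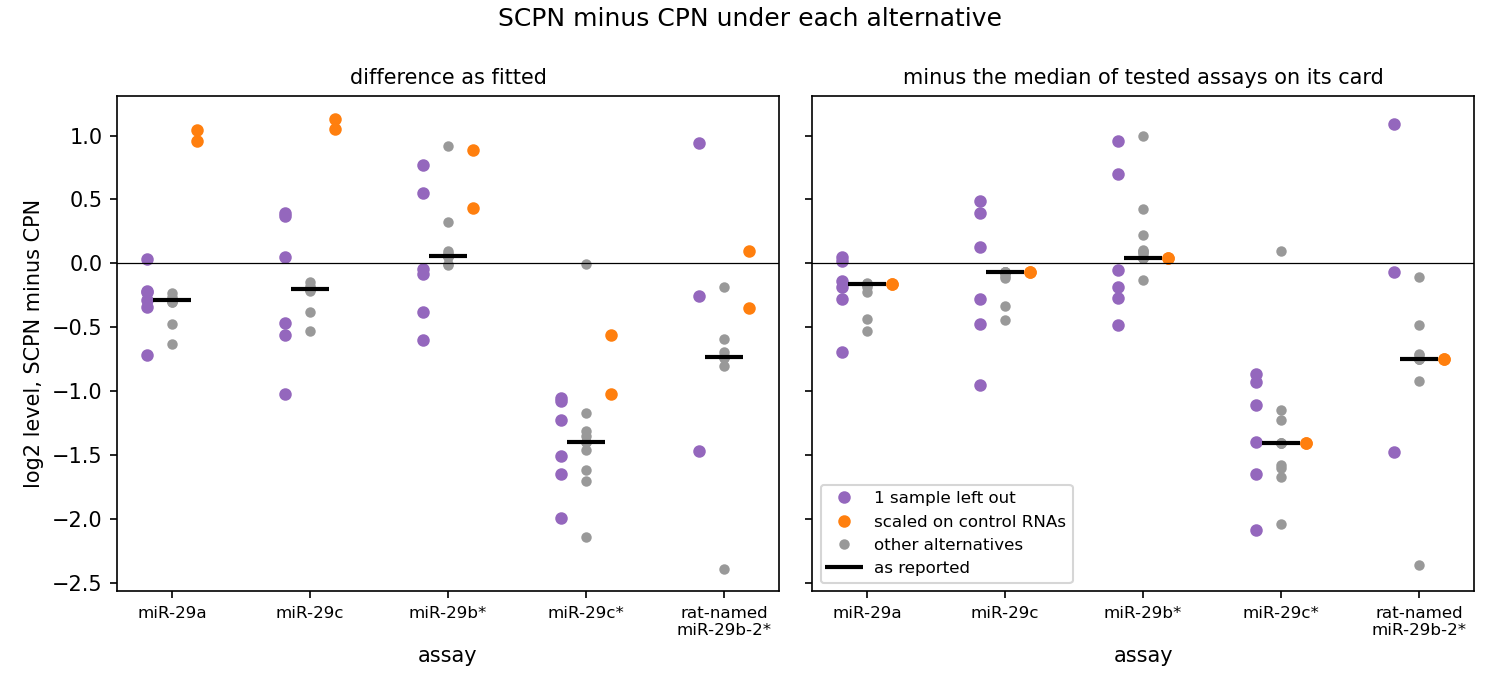
Log2 difference, SCPN minus CPN (vertical axis), of the 5 tested miR-29 assays as reported (black bar), with 1 sample left out (purple), with scaling on control RNAs (orange) and under the other alternatives (grey). Left, as fitted, miR-29a and miR-29c rise to about 1 with scaling on controls; right, after the median of tested assays on the same card is subtracted, those points fall on the reported value by construction.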

How the data were processed

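MicroRNA was isolated with the miRVana kit, per the labels' protocols, and run on TaqMan Low Density Array rodent cards with miRBase 10 content, per the series' design text. The sources used here do not say how thresholds were set or whether cDNA was amplified first. The deposited raw sheet holds a Ct or no call per well. The deposited normalised sheet equals the raw Ct minus a geometric mean of the controls of the sample and card, and the authors' deposited ratio is SCPN over CPN. On card A that mean was taken over 8 control wells, and on card B over 6 control assays. CPN replicate 1 had a U6 Ct of 9.91 on card A and 16.2 on card B. For an assay with several wells, the mean of the wells that gave a Ct was taken, values at or beyond Ct 35 were set to 35, and each card was scaled on the mean of its commonly detected microRNA assays (159 on card A, 65 on card B). Assays detected in at least 3 samples were fitted with limma 3.58.1 in R 4.3.3, two-sided, and adjusted by Benjamini-Hochberg. Exact permutation tests used scipy 1.17.1. The fit was tested on simulated data with planted differences far larger than those of the miR-29 assays and without a Ct limit. That test therefore cannot tell whether differences of the size seen here would be found. No read depth exists here; precision rests on 3 samples per group and the Ct limit.

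The labels do not say whether same-numbered samples share animals or a day. Same-numbered samples deviated together, with correlations of their deviations over 306 assays of 0.55, 0.29 and 0.30. By the rule that each exceed 0.1, the replicate number was used as a block. CPN replicate 2 with SCPN replicate 3 gave 0.32, so the numbers do not single out the pairs of replicates 2 and 3. Levels set to the Ct limit follow the template amount of a sample, and both samples numbered 1 had the lowest mean Ct of their group. The correlations therefore cannot tell pairing from template amount. The block fit was an alternative, and the SEs, intervals and p-values above ignore the replicate number unless a block is named. With the replicate block the SE was 0.50 for miR-29a, 0.61 for miR-29b* and 0.46 for the rat-named miR-29b-2*. The limma adjusted p was then 0.78, 0.975 and 0.47. All miR-29 assays are named, and for those detected throughout the 3 most alike. Members, lists and tests were chosen with earlier results of these data known.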

Additional observations from a re-analysis of the deposited data

How the results depend on the processing

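The count of miR-29 assays past an adjusted p of 0.05 was 0 under all 20 alternatives run, 19 planned and 1, an undetermined well set to Ct 35, chosen after seeing the data. The count over all assays was 0 except with sample weights, where it was 1. Without adjustment 25 assays had a p under 0.05, 51 with the replicate block, 42 with sample weights, 14 with no filter and 14 without SCPN replicate 3. The replicate block changed no adjusted call and left every difference as it was, such as -0.20 for miR-29c.

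Scaling decided several signs. The family median of -0.29 became 0.44 with the authors' normalised Ct and 0.89 with controls without U6. With those scalings miR-29a turned to 0.96 and 1.04, miR-29c to 1.05 and 1.13, and the rat-named miR-29b-2* to 0.098 with the second, while the median of all assays moved to 0.87 and 1.07. MiR-29b* turned to -0.012 with median scaling and -0.0088 with a limit of Ct 32.

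Leaving out 1 sample gave ranges of -0.72 to 0.031 for miR-29a, -1.02 to 0.39 for miR-29c, -0.60 to 0.77 for miR-29b*, -1.99 to -1.05 for miR-29c* and -1.47 to 0.94 for the rat-named miR-29b-2*, which was tested in 3 of these 6 cases. MiR-29c* was below 0 in all 19 alternatives in which it was tested, from -2.14 with quantile normalization (adjusted p 0.24, the lowest) to -0.0039 with a limit of Ct 32, and was not tested when detection in all 6 samples was required. These alternatives rework the same samples, so their shared sign is not separate support.

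Leaving out 1 sample, the difference between groups in miR-29a minus miR-29c ranged from -1.09 to 0.68, and was above 0 without CPN replicate 2 (0.33), CPN replicate 3 (0.49) or SCPN replicate 1 (0.68). The difference in percentile rank ranged from -6.71 to -0.42 for miR-29a, from -9.85 to 3.98 for miR-29c and from -1.79 to 6.71 for miR-29b*, and for miR-29c it was 0 with a limit of Ct 32. The cause of these turns was not tested. The Ct limit, 3 samples per group and unequal template bound what can be read: the median SE was 0.76 over all tested assays.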
